A study of Mus musculus with 6 samples.

Results

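AP-1 is a family of dimeric transcription factors, and the transcripts of 10 of its subunits were followed in the mouse macrophage line RAW264.7 after coculture with Tsc2-null cells. The genes were taken by name from the deposited count table: Fos, Fosb, Fosl1 and Fosl2 of the FOS family, Jun, Junb and Jund of the JUN family, and Atf3, Batf and Batf3, which makes 10 of 54532 genes. Cocultured RAW264.7 cells had been kept for 48 h with TTJ cells, a Tsc2-null line from an angiomyolipoma of a mouse model of tuberous sclerosis complex, and were then collected by fluorescence-activated sorting. Control RAW264.7 cells were grown alone and sorted. Both groups carry the same label of wild-type genotype, and each had 3 libraries, called replicates A, B and C. RAW264.7 is a single transformed line, and the sources used here do not give the sorting gate. Whether A, B and C were grown as separate cultures is not labelled, so the p-values rest on library-to-library spread that may be technical.

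AP-1 proteins pair through a leucine zipper and bind DNA with the basic stretch beside it. FOS proteins need a JUN partner, whereas JUN proteins also pair with each other, so the supply of each subunit sets which dimers can form. In macrophages, Fos, Fosb, Jun, Junb and Atf3 are classic early response genes: growth factors, adhesion, stress and microbial products switch them on within minutes through MAP kinases, and most of their transcripts are short-lived. Fosl1 and Fosl2 encode the later FOS proteins FRA1 and FRA2, Jund is the more constantly expressed JUN gene, and BATF proteins pair with JUN proteins and IRF4 or IRF8 in lymphocytes and dendritic cells.

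The promoters of Fos and Fosb, FOS genes that fell, and of Junb and Jun, JUN genes that changed little, are shown for comparison, from 150 to 21 bases before the RefSeq start (assembly GRCm38.p6, the assembly of mm10). Capitals mark TGACG, the core of the cyclic AMP response element bound by CREB and ATF factors, and TGACATCA, an AP-1-like element.
Fos, chr12:85473740-85473869, plus strand: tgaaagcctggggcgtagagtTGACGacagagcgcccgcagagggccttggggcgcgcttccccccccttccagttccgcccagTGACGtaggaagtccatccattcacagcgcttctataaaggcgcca
Fosb, chr7:19310066-19310195, minus strand: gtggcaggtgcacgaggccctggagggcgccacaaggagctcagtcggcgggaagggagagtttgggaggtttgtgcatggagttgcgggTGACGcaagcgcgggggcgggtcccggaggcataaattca
Junb, chr8:84978769-84978898, minus strand: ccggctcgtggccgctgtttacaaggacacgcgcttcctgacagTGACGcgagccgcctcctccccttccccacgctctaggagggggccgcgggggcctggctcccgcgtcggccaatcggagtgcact
Jun, chr4:95052243-95052372, minus strand: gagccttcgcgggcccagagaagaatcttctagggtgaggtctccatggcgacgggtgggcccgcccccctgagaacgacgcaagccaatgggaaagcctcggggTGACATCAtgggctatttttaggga
In Fos the TGACG copies started 129 and 66 bases before the start, and in Fosb the copy started 60 bases before it. Junb held TGACG at 106 bases, and Jun held TGACATCA at 45 bases. The RefSeq start of Junb lies upstream of the start of the counted gene, whereas those of Fos and Jun match it. The distance in Junb is thus not directly comparable with theirs. Of the 10 subunits, 9 had an entry among the RefSeq windows (250 bases before to 50 after the start), and Fosl1 was not among them. TGACG, searched on both strands, stood in 5 of these 9 windows (Fos, Fosb, Junb, Atf3 and Batf) and in 20.8% of all 32851 windows. TGACATCA was in 1 of 9 windows and in 3.62% of all. The palindrome TGACGTCA, the AP-1 sites TGAGTCA or TGACTCA and the CArG box, to which serum response factor binds, were in 0 of 9 windows, against 1.79%, 5.20% and 1.63% of all windows. TGACG also lies inside TGACGTCA. These matches describe the letters in the windows and were not tested as binding sites. Bases further than 250 before the start were not searched, so a count of 0 does not mean that a gene lacks the site.

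Total counts were between 14329487 and 17358280 per library, lowest in replicate A and highest in replicate C of both groups. Mitochondrial genes took 1.34% to 1.41% of counts in cocultured libraries and 1.55% to 1.75% in lone libraries, without overlap, and the part of this difference in the results was not tested. Epithelial and mesenchymal transcripts were present in the cocultured libraries. Of 15 genes on the renal and simple epithelial list, 11 had enough counts for a test, all of them through the cocultured libraries, since none had more than 1 count over the lone libraries. The list had a summed level of 362 to 419 CPM (counts-per-million, on scaled library sizes) in cocultured libraries and 0 to 0.115 CPM in lone libraries. Cdh16, Krt8 and Cdh1 led it, each with no count in lone cells (5764, 4317 and 2023 counts over the 3 cocultured libraries), and Epcam, Cldn7 and Lhx1 were at 0 counts in coculture. The 15 mesenchymal and smooth muscle markers, none of which averaged 1 CPM in lone cells, had summed levels of 116 to 137 CPM in coculture and 1.79 to 2.20 CPM alone. Thbs1, Timp3 and Col5a1 led these, with 1791, 845 and 1203 counts in coculture and 0, 0 and 1 alone. Of the 15, 7 could be tested, and 6 were higher, while Acta2 was not called (edgeR adjusted p = 0.268). Col1a1, Col1a2, Col3a1, Myl9 and Cnn1 had at most 3 counts each in coculture. Tagln and Pdgfrb had 10 and 23 counts in coculture and 14 and 27 alone. All 12 macrophage markers were at least at 1 CPM in lone cells, and they summed to 13504 to 13868 CPM in coculture and 12867 to 12939 CPM alone. Fcgr1 and Itgam were 2.25-fold and 1.86-fold higher and Tyrobp 1.23-fold lower.

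The subunits of the AP-1 family did not move as a block. Fosb, Fos and Atf3 fell in cocultured macrophages, Fosl1 rose, and the JUN genes had log2 changes between -0.17 and 0.18. Of the 8 subunits with enough counts for a test, 4 were lower and 2 were higher in edgeR's quasi-likelihood test with Benjamini-Hochberg adjusted p under 0.05 over all 12972 genes tested. The same test called 15.2% of all genes lower and 21.7% higher. A fall of at least 2-fold was found for 3 of the 8 subunits, against 0.447% of all genes (58 genes), and a rise of at least 2-fold for 1 of the 8, against 9.34% of all genes. The median log2 change of the 8 subunits was -0.08, beside 0.00 for all genes tested. CPM of the groups did not overlap for 3 subunits that were lower and 2 that were higher, where 21.0% and 26.1% of all genes were apart in these directions.

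**Figure D1:**
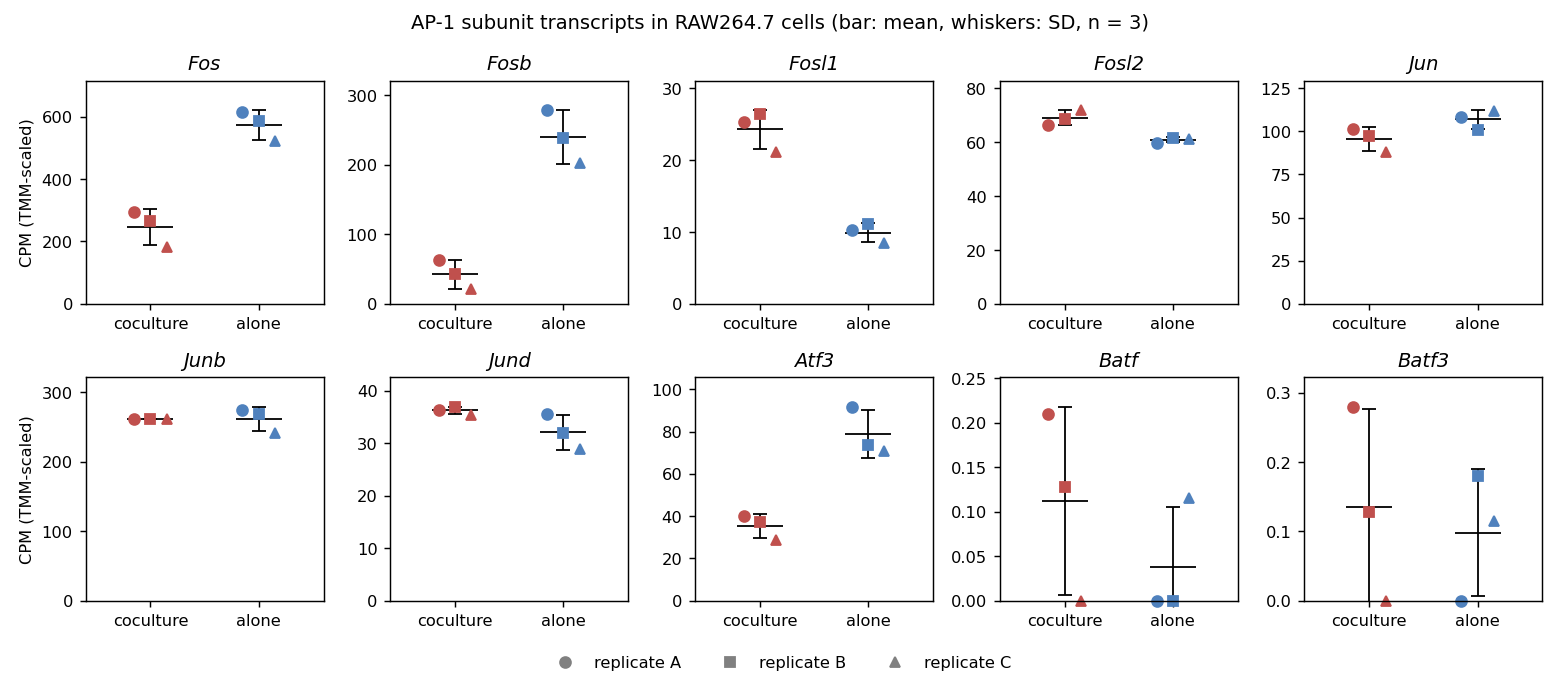
CPM of each AP-1 subunit (vertical axis, scaled library sizes, from 0) in the 3 cocultured and the 3 lone libraries, with the mean and SD of each group. The cocultured points lie below all lone points for Fos, Fosb and Atf3 and above them for Fosl1 and Fosl2, while Batf and Batf3 reach at most 0.280 CPM.

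Fosb, an early response FOS subunit (ENSMUSG00000003545, mm10 chromosome 7, 19302696 to 19310051, minus strand), had the largest change of the family. It had 907, 679 and 370 counts in coculture replicates A, B and C, which is 63.5, 43.3 and 21.7 CPM, against 279, 238 and 203 CPM in lone replicates A, B and C. Every lone library was far above the highest cocultured one, and coculture replicate C was the lowest of all. The mean was 42.9 ± 20.9 CPM in coculture and 239.8 ± 38.3 CPM alone (SD, n = 3 each), 5.66-fold lower (log2 -2.50, SE 0.178, edgeR adjusted p = 1.50e-11). Among the 1974 genes called lower, 1 had a larger fall. The spread between cocultured libraries was also wide, with a coefficient of variation of 48.7% in coculture and 16.0% alone.

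Fos, the founding member of the family (ENSMUSG00000021250, chromosome 12, 85473890 to 85477273, plus strand), had 293, 264.6 and 182 CPM in cocultured libraries and 616, 586 and 522 CPM in lone libraries. The groups lay well apart, and coculture replicate C was again the lowest library. Fos was at 246 ± 57.7 CPM in coculture and 574 ± 47.9 CPM alone (SD, n = 3 each), 2.33-fold lower (log2 -1.22, SE 0.0960, adjusted p = 9.89e-11). There were 33 genes with a larger fall.

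Fosl1, which encodes FRA1, a FOS protein without the strong activation domain of FOS (ENSMUSG00000024912, chromosome 19, 5447703 to 5455945, plus strand), changed in the opposite direction. It had 361, 414 and 361 counts in coculture and 150, 185 and 146 alone, or 25.3, 26.4 and 21.2 CPM against 10.3, 11.1 and 8.41 CPM. All cocultured libraries were above all lone libraries. Fosl1 averaged 24.3 ± 2.74 CPM in coculture and 9.94 ± 1.38 CPM alone (SD, n = 3 each), 2.45-fold higher (log2 1.29, SE 0.120, adjusted p = 2.30e-09). The epithelial and mesenchymal transcripts given above moved in the same direction between the groups, and their part in the rise of Fosl1 was not tested. In bulk RNA of this kind, more cells that carry a transcript and more transcript per cell cannot be told apart. Fosl2, which encodes FRA2 (chromosome 5, 32135801 to 32157842), was 66.6, 68.7 and 72.1 CPM in coculture and 59.9, 61.6 and 61.3 CPM alone, a small shift without overlap (log2 0.18, SE 0.0576, edgeR adjusted p = 0.0143). That call was lost without coculture replicate C (adjusted p = 0.0716) and in fits of log2 FPKM with pseudocounts of 1 and 0.1 (0.0639 and 0.0595), within 0.0114 to 0.0716 over 16 alternatives.

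The JUN genes, whose coding transcripts are single exons in GENCODE M21, changed little. Junb (chromosome 8, 84974484 to 84978718, minus strand), a JUN protein that can restrain Jun in cell cycle control, had 262 CPM in each cocultured library and 275, 269 and 241 CPM in lone libraries. Its log2 change was 0.00 (SE 0.0469, edgeR adjusted p = 0.978). The gene overlaps Prdx2 (8913 counts in coculture and 10139 alone) on the opposite strand. Without a stated strand setting, reads in that overlap cannot be told apart, so the level of Junb is uncertain. Jun (chromosome 4, 95049034 to 95052222) had 101, 97.0 and 87.9 CPM in coculture and 108, 101 and 112 CPM alone. The groups touched, since coculture replicate A was level with alone replicate B. It was called lower (log2 -0.17, SE 0.0564, edgeR adjusted p = 0.0232), and the call ended without coculture replicate C (adjusted p = 0.196), alone replicate A (0.0573) or alone replicate C (0.109) and in all 3 FPKM fits (0.10 to 0.182), within 0.00988 to 0.196 over 16 alternatives. Jund (chromosome 8, 70698949 to 70700616) had 36.3, 36.9 and 35.4 CPM in coculture and 35.5, 32.0 and 28.8 CPM alone, and missed the threshold (log2 0.18, SE 0.0799, edgeR adjusted p = 0.0861). It passed only without alone replicate A (log2 0.26, adjusted p = 0.0168), in a range of 0.0168 to 0.369. Antisense genes overlap Jun (Junos, 44 counts in coculture and 25 alone) and Jund (Gm11175, 0 counts in both groups).

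Atf3, a stress-induced factor that pairs with JUN proteins and is known to restrain inflammatory genes in macrophages (ENSMUSG00000026628, chromosome 1, 191170296 to 191218039, minus strand), followed Fos closely. It had 39.9, 37.1 and 28.8 CPM in cocultured libraries and 91.8, 73.9 and 70.9 CPM in lone libraries. No cocultured library reached the lowest lone one. The means were 35.3 ± 5.78 CPM in coculture and 78.9 ± 11.3 CPM alone (SD, n = 3 each), 2.24-fold lower (log2 -1.16, SE 0.0957, edgeR adjusted p = 2.36e-10), and 40 genes had a larger fall.

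Batf and Batf3 were barely present. Batf (chromosome 12, 85686669 to 85709087) had 3, 2 and 0 counts in coculture and 0, 0 and 2 alone. Batf3 (chromosome 1, 191097847 to 191108945) had 4, 2 and 0 counts in coculture and 0, 3 and 2 alone. Both were below the limit for testing, so a difference was not detectable at this depth. They lie beside other subunits of the family, Batf 209 kb from Fos and Batf3 61.4 kb from Atf3. Of their IRF partners, Irf8 was at 91.0 ± 3.47 CPM in coculture and 65.2 ± 1.04 CPM alone (1.39-fold higher, edgeR adjusted p = 6.63e-08), and Irf4 was at 3.99 ± 0.257 CPM in coculture and 3.41 ± 0.423 CPM alone (adjusted p = 0.445).

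**Figure D2:**
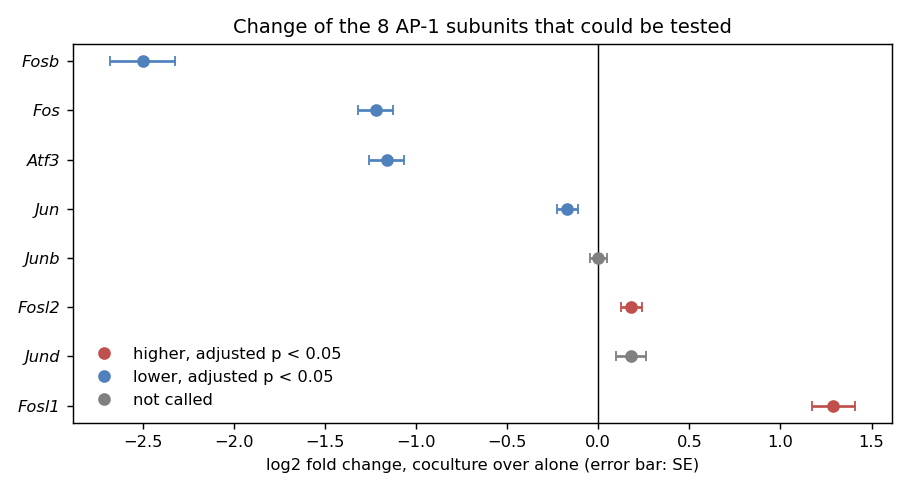
Log2 fold change of coculture over alone (horizontal axis) with its standard error for the 8 AP-1 subunits tested, coloured by call at an adjusted p of 0.05. Fosb, Fos and Atf3 lie at -2.50, -1.22 and -1.16, the JUN genes and Fosl2 lie between -0.17 and 0.18, and Fosl1 lies at 1.29.

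Levels of different subunits were compared per gene length, as FPKM (fragment counts scaled to gene length and library size). In coculture the order was Junb (114 ± 0.0466 FPKM), Fos (105 ± 24.5), Jun (29.9 ± 2.13), Jund (21.7 ± 0.459), Atf3 (16.3 ± 2.68), Fosl1 (14.2 ± 1.61), Fosl2 (7.13 ± 0.287) and Fosb (6.85 ± 3.34). In this order Junb and Fos overlapped between libraries, as did Atf3 and Fosl1, and Fosl2 and Fosb. The place of Junb is also uncertain because of its overlap with Prdx2. In lone cells Fos (244 ± 20.3 FPKM) was above Junb (113 ± 7.74), followed by Fosb (38.3 ± 6.14), Atf3 (36.5 ± 5.26), Jun (33.4 ± 1.80), Jund (19.2 ± 2.0), Fosl2 (6.28 ± 0.0892) and Fosl1 (5.81 ± 0.802). Fosb, Atf3 and Jun could not be ordered there, nor could Fosl2 and Fosl1. By mean FPKM, Fosb was thus the lowest of the 8 in coculture and the third highest in lone cells. Among all genes Fos ranked 441 by mean FPKM in coculture and 172 alone.

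The summed FPKM of the 10 subunits was 342, 326 and 276 in cocultured libraries and 535, 500.2 and 455 in lone libraries. FOS genes made up 45.6%, 43.6% and 36.4% of that sum in coculture and 59.5%, 59.8% and 58.3% alone, which is 41.9% ± 4.87 in coculture and 59.2% ± 0.789 alone (SD, n = 3 each). JUN genes made up 52.9% ± 5.22 in coculture and 33.5% ± 0.948 alone. As parts of the same sum these shares are not separate results, since a fall of the FOS genes raises the JUN share. The JUN genes themselves had log2 changes between -0.17 and 0.18. The groups did not overlap in either share. An exact two-sided permutation test gave p = 0.1 for each, the smallest that 3 against 3 libraries allow, so neither could pass 0.05. The FOS genes summed to 0.934, 0.854 and 0.619 times the JUN genes in coculture and 1.82, 1.79 and 1.69 times alone. Within the FOS family, Fosb was 4.95% ± 1.52 of FPKM in coculture and 13.0% ± 0.940 alone, while Fosl1 was 10.9% ± 1.44 in coculture and 1.97% ± 0.168 alone. Fos itself stayed the main FOS transcript, at 78.5% ± 1.53 in coculture and 82.9% ± 0.714 alone. Junb, whose level is uncertain because of the overlap with Prdx2, held 36.4% ± 4.17 of the summed FPKM in coculture and 22.9% ± 0.526 alone. All shares of the sum, and ratios that include Junb, carry that limit. Shares of transcripts do not give shares of proteins or dimers, which were not measured.

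**Figure D3:**
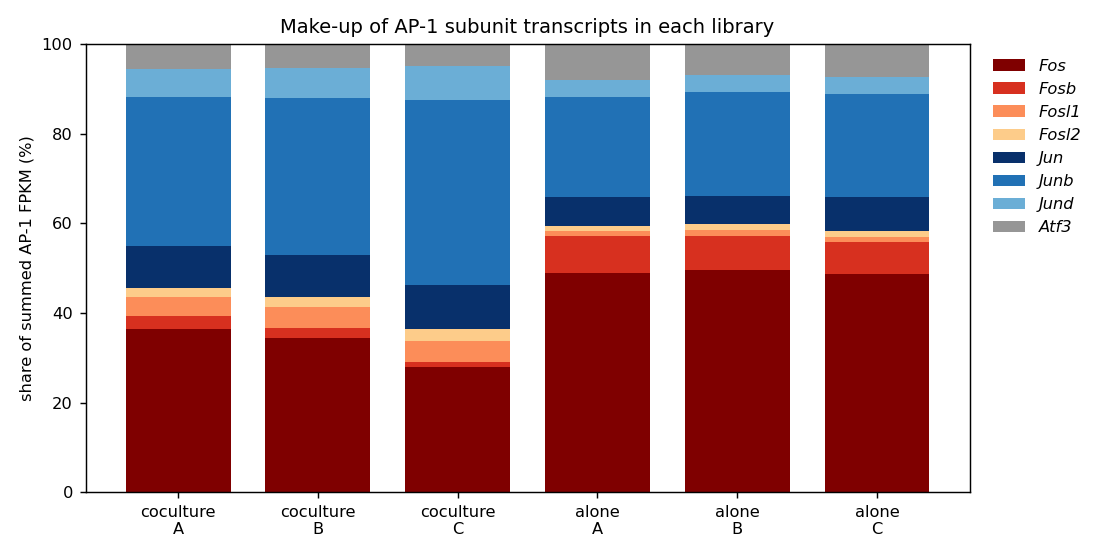
Share of the summed FPKM of the AP-1 subunits (vertical axis, %) held by each subunit in each library, stacked, with FOS genes in reds, JUN genes in blues and Atf3 in grey; Batf and Batf3, under 0.1%, are too small to draw. The FOS genes fill 36.4% to 45.6% of cocultured bars and 58.3% to 59.8% of lone bars.

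Ratios within a library, which do not depend on library scaling, showed unequal change between subunits. The log2 FPKM ratio of Fosb to Fos was -4.03 ± 0.429 in coculture and -2.68 ± 0.116 alone (SD, n = 3 each), so Fosb was 2.56-fold lower relative to Fos. The ratio of Fos to Jun was 1.78 ± 0.259 in coculture and 2.86 ± 0.173 alone, and that of Atf3 to Jun was -0.88 ± 0.143 in coculture and 0.12 ± 0.207 alone. Fosl2 to Fos was at -3.85 ± 0.419 in coculture and -5.27 ± 0.137 alone, and Jund to Jun at -0.46 ± 0.0837 in coculture and -0.80 ± 0.187 alone. These 5 ratios were apart between the groups, with an exact two-sided permutation p of 0.1 each (0.12 adjusted over 6 ratios), and could not pass 0.05 in this design. Junb to Jun overlapped, at 1.93 ± 0.105 in coculture and 1.76 ± 0.160 alone (exact p = 0.2, adjusted 0.2).

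The libraries of a group were not equal in these genes. Fos, Fosb and Atf3 were highest in replicate A and lowest in replicate C, in the cocultured and in the lone libraries alike, a pattern looked for after the values had been seen. That order held in both groups for 3 of 8 subunits, for 4 of 20 other early response genes (Egr1, Egr2, Zfp36 and Dusp1), and for 3.05% of all genes tested. Total counts were lowest in replicate A and highest in replicate C of both groups, and the part of depth in this pattern was not tested. Fos, Fosb and Atf3 were past the threshold without coculture replicate C and in the other alternatives, 16 in all, with log2 changes between -1.37 and -1.04, between -2.89 and -2.16, and between -1.26 and -1.03.

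**Figure D4:**
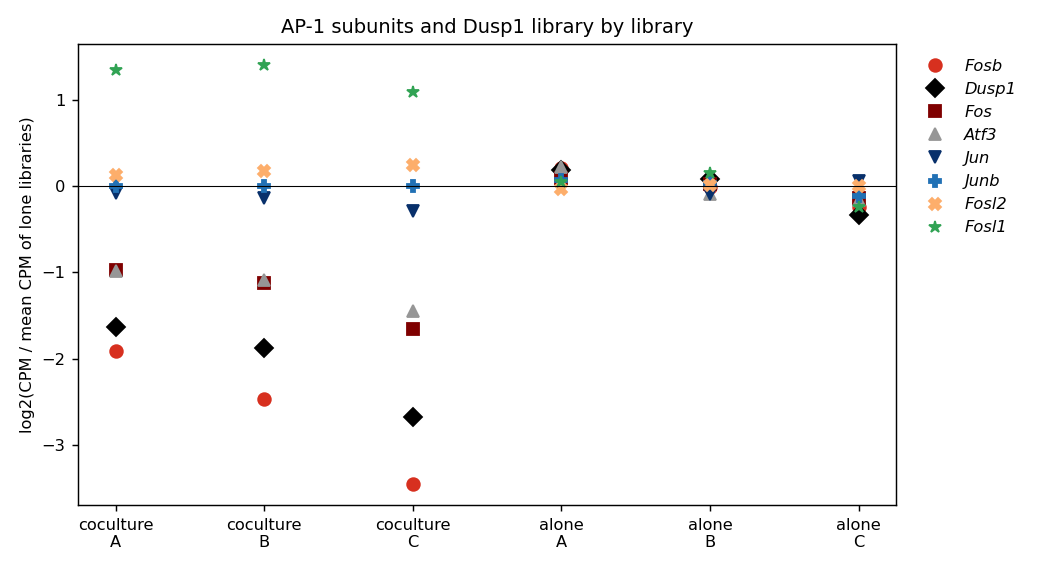
Log2 of the CPM in each library over the mean CPM of the lone libraries (vertical axis) for 7 AP-1 subunits and Dusp1, with cocultured replicates on the left and lone replicates on the right. Fosb, Dusp1, Fos and Atf3 lie below 0 in all cocultured libraries and are lowest in replicate C of each group, while Fosl1 lies above 0 in all cocultured libraries.

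Profiles were compared as the root mean square difference of centred log2 CPM over the 6 libraries. Atf3 differed from Fos by 0.11. The nearest of 9521 protein-coding genes outside the family with a mean of at least 5 CPM was Slc9b2, a sodium and proton exchanger, at 0.202, followed by Klf2 (0.232), Rgs1 (0.244), Bckdha (0.253) and Kcnj2 (0.259). For Fosb the nearest was Dusp1, the phosphatase that switches off p38 and JNK, at 0.320, followed by the serotonin receptor gene Htr1b (0.461), Cd83 (0.817), Fam13c (0.855) and Klf2 (0.856). These distances describe 6 libraries in 2 groups.

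Other early response genes moved in both directions. Of 20 genes on that list, all tested, 9 were lower (45% of them, beside 15.2% of all genes) and 5 higher (25%, beside 21.7%), with a median log2 change of -0.11. Cyr61, under 1 CPM in lone cells, entered the test through the cocultured libraries. Of the 19 that reached a mean of 1 CPM in lone cells, 9 were lower and 4 higher (median -0.16). Dusp1 was at 49.6 ± 16.8 CPM in coculture and 198 ± 36.1 CPM alone (SD, n = 3 each; 4.02-fold lower, edgeR adjusted p = 1.49e-11), and Klf2, a factor that keeps macrophages quiescent, was 2.21-fold lower. Egr1, which shares serum response control with Fos, was 1.47-fold lower, at 114 ± 22.6 CPM in coculture and 168 ± 31 CPM alone (adjusted p = 1.15e-04), a call that ended in the FPKM fits (0.0511 to 0.128). Myc was 18.2-fold higher, at 29.7 ± 2.10 CPM in coculture and 1.61 ± 0.403 CPM alone, and Cyr61, a matrix-associated growth regulator, had 556 counts in coculture and 1 alone. The epithelial and mesenchymal transcripts moved with these rises, and their part was not tested.

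Genes of the tissue dissociation response other than AP-1 subunits were looked at because sorting and detachment are known to induce Fos and Jun. Of 30, 29 could be tested, and 10 were lower (34.5%, beside 15.2% of all genes) and 7 higher (24.1%, beside 21.7%), with a median log2 change of 0.01. Over the 28 tested genes that reached a mean of 1 CPM in lone cells, which leaves out Hspb1, 10 were lower and 6 higher (median -0.01). The summed level of the list, 8968 to 9419 CPM in coculture and 9191 to 9642 CPM alone, was mostly that of the chaperone genes Hsp90ab1, Hspa8 and Hsp90aa1, which held 72.3% to 75.2% of it. The other genes of the list summed to 2221 to 2405 CPM in coculture and 2491 to 2673 CPM alone, without overlap. That sum was lower in coculture, the same direction as Fos, Fosb and Atf3, and its part in their fall was not tested. The list shares Dusp1, Egr1, Zfp36, Btg2, Klf4, Ppp1r15a, Ier2 and Nr4a1 with the early response list, so the lists are not separate results. All of these but Ier2 and Nr4a1 were called lower. Dusp1 had the largest fall on the list, with 49.6 CPM in coculture and 198 CPM alone, and is part of that sum. So are Egr1 (114 CPM in coculture and 168 CPM alone), Zfp36 (139 and 179 CPM) and the other shared genes, while 7 genes of the list were higher. The lower sum is thus not separate from the early response list, and a sum without the shared genes was not taken. The rises were led by Mt2, a metallothionein (2.03-fold), and by Hspb1, a small heat shock protein with 151 counts in coculture and 1 alone. The part of the epithelial and mesenchymal transcripts in the rise of Hspb1 was not tested.

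Most genes of the signalling layer above AP-1 showed small changes. Among 27 MAP kinases and linked kinases, 26 could be tested, and 20 were not called (median log2 -0.05). Of the 26, 4 were lower (15.4%, beside 15.2% of all genes) and 2 higher (7.69%, beside 21.7%). Map2k1, which encodes MEK1, was 1.18-fold higher. Rps6ka5, which encodes the histone kinase MSK1, and Map2k5 were 1.32-fold and 1.19-fold lower. The call of Rps6ka5 ended in the FPKM fits (adjusted p between 0.0592 and 0.115), and that of Map2k5 without coculture replicate C (adjusted p = 0.0679) or alone replicate C (0.0561). MAP kinase phosphatases split, with 6 of 9 higher (66.7%, beside 21.7% of all genes) and only Dusp1 lower (11.1%, beside 15.2%), at a median of 0.43. Of the 8 that reached a mean of 1 CPM in lone cells, 5 were higher and 1 lower. Dusp8 was 5.54-fold higher, at 2.99 ± 0.927 CPM in coculture and 0.534 ± 0.109 CPM alone, Dusp10 was 3.19-fold higher, and Dusp6, an ERK phosphatase whose gene ERK induces, was 2.08-fold higher, at 91.2 ± 1.86 CPM in coculture and 43.8 ± 1.84 CPM alone (adjusted p = 8.97e-14). The part of the epithelial and mesenchymal transcripts in these rises was not tested.

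Of 14 factors that act on AP-1 promoters, 1 was higher (7.14%, beside 21.7% of all genes) and 2 lower (14.3%, beside 15.2%), with a median log2 change of -0.06. Elk3, a ternary complex factor that can repress Fos, was 1.71-fold higher, at 63.6 ± 4.02 CPM in coculture and 37.1 ± 1.94 CPM alone (edgeR adjusted p = 8.98e-10). The part of the epithelial and mesenchymal transcripts in its rise was not tested. Mef2c was 1.13-fold lower (166 ± 6.19 CPM in coculture and 188 ± 15.1 CPM alone), and Creb1 fell to 70.3 ± 2.95 CPM in coculture, against 78.9 ± 1.21 CPM alone. Both calls ended in all 3 FPKM fits (adjusted p between 0.0822 and 0.163), that of Mef2c without alone replicate C (0.0943), and that of Creb1 without coculture replicate A (0.0860) or alone replicate C (0.0505). Srf itself was at 95.3 ± 2.45 CPM in coculture and 87.0 ± 6.38 CPM alone and did not pass (adjusted p = 0.0623), but passed with the replicate block (log2 0.14, adjusted p = 0.0434), with a filter of 1 CPM in 3 libraries (0.0483) and without alone replicate A (log2 0.19, 0.0110). Of 14 factors of AP-1 transcript and protein turnover, 3 were lower (21.4%, beside 15.2% of all genes) and 2 higher (14.3%, beside 21.7%), with a median of 0.00. Zfp36, which encodes tristetraprolin, an mRNA decay factor, was 1.29-fold lower (adjusted p = 4.92e-04), and its relative Zfp36l1 was 1.27-fold higher. Trib1 was 1.24-fold lower (adjusted p = 0.0269). The call of Zfp36 was lost in the DESeq2 Wald test (0.0527) and in the FPKM fits (0.0600 to 0.142), and that of Trib1 in the FPKM fits (0.174 to 0.315) and without coculture replicate C (0.180), alone replicate A (0.101) or alone replicate B (0.160).

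Among 23 other bZIP factors that pair with AP-1 subunits or share their sites, 8 were higher (34.8%, beside 21.7% of all genes) and 5 lower (21.7%, beside 15.2%), with a median log2 change of 0.02. Over the 22 that reached a mean of 1 CPM in lone cells, which leaves out Maf, 7 were higher and 5 lower (median 0.01). Maff was 1.87-fold higher, at 6.17 ± 0.113 CPM in coculture and 3.29 ± 0.582 CPM alone (edgeR adjusted p = 4.61e-04), and Maf had 331 counts over the 3 libraries in coculture and 3 alone. The epithelial and mesenchymal transcripts likewise went with coculture, and their part in the rises of Maff and Maf was not tested. Jdp2, a repressing partner of JUN proteins, was 1.32-fold lower, at 33.7 ± 1.64 CPM in coculture and 44.4 ± 4.59 CPM alone (edgeR adjusted p = 2.05e-04).

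Genes known for AP-1 sites were mostly higher. Of 24, 17 could be tested, and 15 were higher and 1 lower, with a median log2 change of 0.66. Hbegf, Il1b and Timp1, under 1 CPM in lone cells, entered the test through the cocultured libraries. Of the 14 genes that reached a mean of 1 CPM in lone cells, 12 were higher and 1 lower, with a median log2 change of 0.61. Over all genes tested, without that limit on the level in lone cells, 21.7% were higher and 15.2% lower, with a median of 0.00. The largest rises were in Hbegf, an EGF receptor ligand (16.2-fold, 7.75 ± 0.776 CPM in coculture and 0.455 ± 0.454 CPM alone), Il1b (12.9-fold) and Timp1 (12.7-fold). Among well-expressed members, Plau, the urokinase gene, was 3.40-fold higher, at 269 ± 12.3 CPM in coculture and 78.9 ± 0.857 CPM alone, Ccl2 was 4.86-fold higher and Ptgs2 2.43-fold higher. Trp53 was the member that fell (log2 -0.21, edgeR adjusted p = 5.06e-04), and Mmp9 was at 51.5 CPM in coculture and 55.8 CPM alone (adjusted p = 0.291), and was called lower without coculture replicate C (log2 -0.23, adjusted p = 0.0278). Many of these genes also answer to other factors, and the part of the epithelial and mesenchymal transcripts in their change was not tested.

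**Figure D5:**
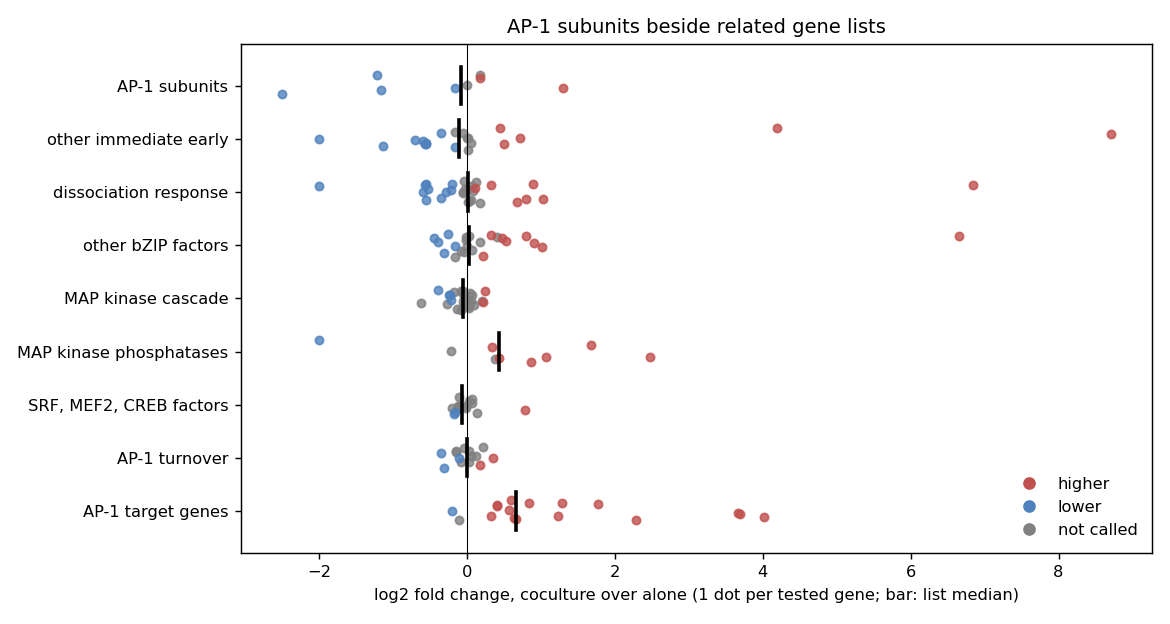
Log2 fold change of coculture over alone (horizontal axis) of every tested gene on the AP-1 list and on 8 related lists, 1 dot per gene, coloured by call, with a bar at the list median. The AP-1 subunits spread from -2.50 to 1.29, the MAP kinase cascade and the promoter factors have medians of -0.05 and -0.06, and the AP-1 target genes have a median of 0.66.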

How the data were processed

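Poly-A RNA of sorted RAW264.7 cells was sequenced as paired reads, per the labels' protocols. Per the submitters' processing notes, the tools included edgeR 3.22.5, DESeq2 1.20.0, featureCounts 1.5.0-p3 and HISAT2 2.0.5, with build mm10; the sources used here give no strand setting. The authors deposited raw counts per gene (0 rows without a gene, 0 columns of other samples) and a table of FPKM. Recomputed here for genes above a low limit of counts in a library, each deposited FPKM value equalled the count over gene length and library total, times a library factor. That factor was 0.996 to 1.00, and gene length is a column of the count table, per the file headers. Values with fewer counts, such as those of Batf and Batf3, were not covered.

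Counts were tested with edgeR 4.0.16 (R 4.3.3): TMM scaling, filterByExpr by group, a quasi-likelihood F test with a single group term, Benjamini-Hochberg adjustment over all 12972 genes kept and a threshold of 0.05. SE is the absolute log2 change over the square root of F. Shares and ratios of FPKM were tested by exact permutation (scipy 1.17.1). Libraries of the same group were not duplicates (chi-square per degree of freedom 2.98 to 4.57 over genes). The common biological coefficient of variation was 5.29%.

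The subunits and the 12 gene lists were chosen with earlier results of these data known, and lists are described by counts and medians only. Named genes were all subunits, from each list up to 3 called genes of the largest absolute change that reached 1 CPM (or 2 of the highest level), and the 5 nearest profiles of Fos and Fosb. Egr1, Dusp6, Srf, Jdp2, Irf4, Plau, Ccl2, Ptgs2, Trp53, Mmp9 and the 3 chaperone genes were added after their values were seen. So were genes named for low or uncalled levels on the marker lists, and those named as shared between lists. A gene that the rule names is not reported here. Alternatives were other scalings (DESeq2 size factors, upper quartile), other filters, the replicate letter as a block, the DESeq2 1.42.0 Wald test, limma 3.58.1 (voom, and with a trend on log2 FPKM with pseudocounts of 1 and 0.1, where fold changes of low genes are understated), and each library left out. Promoter windows were RefSeq's. No sequence of the Fosl1 promoter was used here.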

Additional observations from a re-analysis of the deposited data

How the results depend on the processing

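Fos, Fosb, Atf3 and Fosl1 kept direction and call under all 16 alternatives. The number of subunits called higher was 2 and became 1 with limma on log2(FPKM + 1) or log2(FPKM + 0.1), and ran from 1 to 3 when 1 library was left out, with 1 without coculture replicate C. The number called lower was 4 and ran from 3 to 4. Genes called lower numbered 1974, against 1144 and 1204 in these FPKM fits, and genes called higher numbered 2819, against 2383 with limma on log2(FPKM + 1) and 1707 when that fit also had a filter of 1 on mean FPKM, which left fewer genes. The sign of Junb turned with upper quartile scaling (-0.01), without a filter (0.00, adjusted p = 0.975) and when 1 library was left out (-0.05 to 0.04), far from the threshold each time. The cause of these shifts was not tested. Samples with the same replicate letter did not deviate together across all genes (r of 0.00, 0.02 and 0.03), so the letters were not taken as pairs. Fos, Fosb and Atf3, however, followed the same order of letters in both groups. Their log2 changes were -1.24, -2.56 and -1.16 in the edgeR fit with the letter as a block (adjusted p = 2.04e-13, 3.90e-14 and 7.00e-12). With the replicate block 2 subunits were higher and 4 lower, among 2815 genes higher and 1951 lower. The share of FOS genes differed by -17.3 percentage points (coculture minus alone), and the difference lay between -19.2 and -14.5 in every alternative run, CPM in place of FPKM and the sum without Fosb included. Batf and Batf3 were limited by depth.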
